A study of Mus musculus with 8 samples.

Results

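Tubb4a encodes a β-tubulin, and Sirt2 encodes a deacetylase that acts on α-tubulin. Their rows were taken by gene symbol from a table of 10987 transcripts, in which they account for 2 genes, and all 8 libraries were used. Both were chosen by their measured rise in oligodendrocytes (OLs) over oligodendrocyte progenitor cells (OPCs), in RNA-seq and in ribosome footprints. Their values in that comparison are therefore given as a description, with no test. They were set beside the 4 other β-tubulins and the 6 other sirtuins of the table, which were taken by name.

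The study profiled OPCs and the OLs made from them, to ask how tRNAs and the reading of codons change with differentiation. The OPCs were derived from epiblast stem cells of 129S/SvEv mice and grown with bFGF (20 ng/mL) and PDGFA (20 ng/mL). OLs came from the same kind of OPCs, passaged without bFGF and then kept with noggin (100 ng/mL), IGF-1 (100 ng/mL), cyclic AMP (10 uM), NT3 (10 ng/mL) and T3 (40 ng/mL). Neither group carried a transgene or a deletion in the labels, and the lysates of several plates were pooled into each sample. The cells were flash-frozen and lysed with emetine, which halts ribosomes. Each group had 2 replicates of RNA-seq of total RNA and 2 of footprints, the mRNA fragments that ribosomes protect from micrococcal nuclease. The study calls them biological replicates, with the OLs made from the OPC replicates. Whether these go back to separate derivations of the cells is not given in the sources used here.

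Microtubules are built from dimers of α- and β-tubulin, and mammals have several β-tubulin genes whose proteins differ mostly in the acidic tail at the C-terminus. TUBB4A is abundant in the brain, and its mutations cause hypomyelination with atrophy of the basal ganglia and cerebellum, a disease in which oligodendrocytes are affected. The enzyme αTAT1, encoded by Atat1, acetylates α-tubulin on lysine 40, a mark of long-lived microtubules. HDAC6 and SIRT2 remove it, and SIRT2 needs NAD to do so. SIRT2 is known as a protein of OLs and of myelin, and it also deacetylates histones and metabolic enzymes.

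On GRCm38, the listed transcript of Tubb4a lies on chromosome 17, at chr17:57080066-57087782 on the minus strand, with 4 exons and a coding sequence (CDS) of 1332 bases without the stop codon. Sirt2 lies at chr7:28766767-28788660 on the plus strand, where its 16 exons hold a CDS of 1167 bases. No exon of either overlaps an exon of another gene in Gencode vM21. Of the 30-base words of the Tubb4a CDS, which are about the length of a footprint, 3.53% are also found in transcripts of other genes, against 0% for Sirt2. Reads of both genes can therefore mostly be told from those of their relatives. This is not so for Tubb4b, in which 78.3% of the CDS words are shared, mainly with its pseudogenes, and whose exons overlap Fam166a on the other strand.

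The end of the CDS is shown for Tubb4a and the 3 other β-tubulins that passed the minimum level, because this is where the proteins differ most. Each line holds the last 20 codons and the stop codon, 5′ to 3′, from Gencode vM21 transcripts (GRCm38), with glutamate codons in capitals. Tubb4a is read from chr17:57080690-57080752 (minus), Tubb4b from chr2:25222308-25222370 (minus), Tubb5 from chr17:35834982-35835044 (minus) and Tubb3 from chr8:123421620-123421682 (plus).
Tubb4a: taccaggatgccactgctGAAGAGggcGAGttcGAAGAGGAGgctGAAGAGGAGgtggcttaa
Tubb4b: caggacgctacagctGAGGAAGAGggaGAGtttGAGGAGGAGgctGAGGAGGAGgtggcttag
Tubb5: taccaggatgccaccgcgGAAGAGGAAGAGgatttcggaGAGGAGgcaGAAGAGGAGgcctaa
Tubb3: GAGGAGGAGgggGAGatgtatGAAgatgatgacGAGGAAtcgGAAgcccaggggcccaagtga
The stretch holds 9 glutamate codons in Tubb4a, 10 in Tubb4b, 9 in Tubb5 and 8 in Tubb3. Over the whole CDS, the encoded Tubb4a protein is 98.4% identical to Tubb4b, 96.6% to Tubb5, 90.9% to Tubb3 and 77.8% to Tubb1. The CDS itself is less alike, with an identity between 74.2% (Tubb1) and 83.9% (Tubb5), which is what lets short reads separate the genes.

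The start of the Sirt2 CDS is shown because Gencode vM21 holds 4 coding transcripts of the gene, which differ in where translation begins. The line holds the first 42 codons of the listed transcript, joined from 4 exons within chr7:28766852-28772108 (plus strand, GRCm38), with 2 ATG codons in capitals.
Sirt2: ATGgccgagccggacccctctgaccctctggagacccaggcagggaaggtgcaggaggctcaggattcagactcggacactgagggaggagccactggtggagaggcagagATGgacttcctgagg
The first ATG opens the listed CDS of 389 codons and a form of 319 codons. The second, at codon 38, opens the forms of 352 and 351 codons. The shorter start is the one known for the SIRT2 form that prevails in brain. The CDS of all 4 forms lies within the listed CDS, so the single value per library does not separate them. The sirtuins are far less alike than the β-tubulins: the encoded Sirt2 protein is between 21.4% (Sirt5) and 36.8% (Sirt3) identical to the other 6.

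The target of Sirt2 on the microtubule is shown last, as codons 35 to 45 of 2 α-tubulins: Tuba1b, which had the highest level of those listed, and Tuba4a, which changed in footprints. Codon 40, for the acetylated lysine, is in capitals. Tuba1b is read from chr15:98933064-98933096 (minus) and Tuba4a from chr1:75217303-75217335 (minus).
Tuba1b: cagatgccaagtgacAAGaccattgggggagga
Tuba4a: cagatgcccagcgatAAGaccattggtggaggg
Both hold the lysine codon AAG at position 40, counted from the start codon.

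The cultures were checked by markers. Of 12 oligodendrocyte markers, 9 are listed, and their summed RNA-seq level was 34.3 and 37.0 FPKM (fragments counted per length of transcript and per total mapped) in OPCs and 3752 and 3275 FPKM in OLs. The 5 listed OPC markers did not fall as a sum, which was 328 and 320 FPKM in OPCs, against 664 and 751 FPKM in OLs, and Pdgfra, Gpr17 and Lhfpl3 were each higher in OLs (past the threshold in limma). In RNA-seq Gpr17 passed in all 12 settings. The RNA-seq call of Pdgfra passed in 7 of 12 settings, and in 6 of the 8 that keep all replicates. Its log2 fold change ran from 0.94 to 1.72 over all settings. The call of Pdgfra was lost without OPC replicate 2 or OL replicate 1 or 2, and that of Lhfpl3 without OPC replicate 2. Most of that gain is Gpr17, with 8.38 and 4.91 FPKM in OPCs, against 221 and 271 FPKM in OLs, while Ptprz1 had 210 and 238 FPKM, against 203 and 248 FPKM. The 2 listed cycling markers, Top2a and Ccnb1, were lower in OLs, with the call of Ccnb1 lost without OPC replicate 1 or 2 (limma, adjusted p = 0.0534 and 0.0830). Astrocyte markers (3 of 5 listed) summed to 14.4 and 11.0 FPKM in OPCs and to 67.2 and 39.8 FPKM in OLs, with Gfap and Slc1a2 past the threshold in RNA-seq. Without OPC replicate 1 or 2 these calls were lost (limma, adjusted p = 0.112 and 0.172 for Gfap, 0.0594 and 0.0796 for Slc1a2), and the footprints of Gfap did not pass (0.390). Neuron markers (7 of 7) summed to 69.0 and 85.7 FPKM in OPCs, against 32.1 and 54.8 FPKM in OLs. Only Gap43 passed the threshold in RNA-seq, with a log2 fold change of -1.25. The other 6 did not pass, and theirs ran from -0.11 (Snap25) to 1.41 (Nefl), so the lower sum is not shared by all neuron markers. Microglial markers reached at most 0.209 FPKM in RNA-seq (2 of 4 listed), and no endothelial marker is listed. The depth estimated from the values was 77.9 to 241 Mb of aligned bases in RNA-seq and 93.0 to 249 Mb in footprints, with a possible factor of 2, and the second OL footprint library was the shallowest of its kind. Among listed transcripts, 31.1% are at 0 in that library, against 14.7% to 20.5% in the other footprint libraries. In such bulk samples, fewer cells of a type and less RNA per cell cannot be told apart, and the part of other cell types in the results below was not tested.

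Tubb4a RNA was low in OPCs and high in OLs. Its RNA-seq level was 3.28 and 5.05 FPKM in the OPC replicates and 170 and 103 FPKM in the OL replicates. The mean went from 4.16 ± 1.25 FPKM to 136 ± 48.0 FPKM (SD, n = 2 each), which is 32.8-fold. The groups did not overlap, and the first OL replicate was the higher of its group. About 58.9 and 62.3 reads of 30 bases stand behind the OPC values and 1523 and 593 behind those of OLs, by the depth estimate. The gene was thus read from few fragments in OPCs, where it ranked 6569 among the 10987 listed transcripts by mean FPKM, and it ranked 332 in OLs.

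The footprints on Tubb4a followed with less spread. They were 19.1 and 19.5 FPKM in OPCs, against 956 and 916 FPKM in OLs, a mean of 19.3 ± 0.273 FPKM against 936 ± 28.1 FPKM (SD, n = 2 each), or 48.6-fold. Again the groups did not overlap, and within each group the replicates were closer than in RNA-seq. These values rest on about 211 and 179 reads of 30 bases in OPCs and 9094 and 3791 in OLs. By mean footprint level Tubb4a went from rank 4120 to rank 99.

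Sirt2 started higher and ended higher. Its RNA-seq level was 24.9 and 19.5 FPKM in OPCs, against 1057 and 897 FPKM in OLs, with means of 22.2 ± 3.83 and 977 ± 113 FPKM (SD, n = 2 each), or 44.0-fold. Only 11 of the listed transcripts had a higher mean in OL RNA-seq, where Sirt2 ranked 12, against rank 2653 in OPCs. Its footprints were 39.9 and 38.5 FPKM in OPCs, against 2223 and 2110 FPKM in OLs, with means of 39.2 ± 0.971 and 2167 ± 80.3 FPKM (SD, n = 2 each), or 55.3-fold. The groups did not overlap in either kind of library, and in footprints Sirt2 went from rank 2766 to rank 22. About 370 and 199 reads of 30 bases lie behind the OPC RNA-seq values, 7815 and 4295 behind those of OLs, and 387, 311, 18537 and 7652 behind the footprints in the same order.

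**Figure D1:**
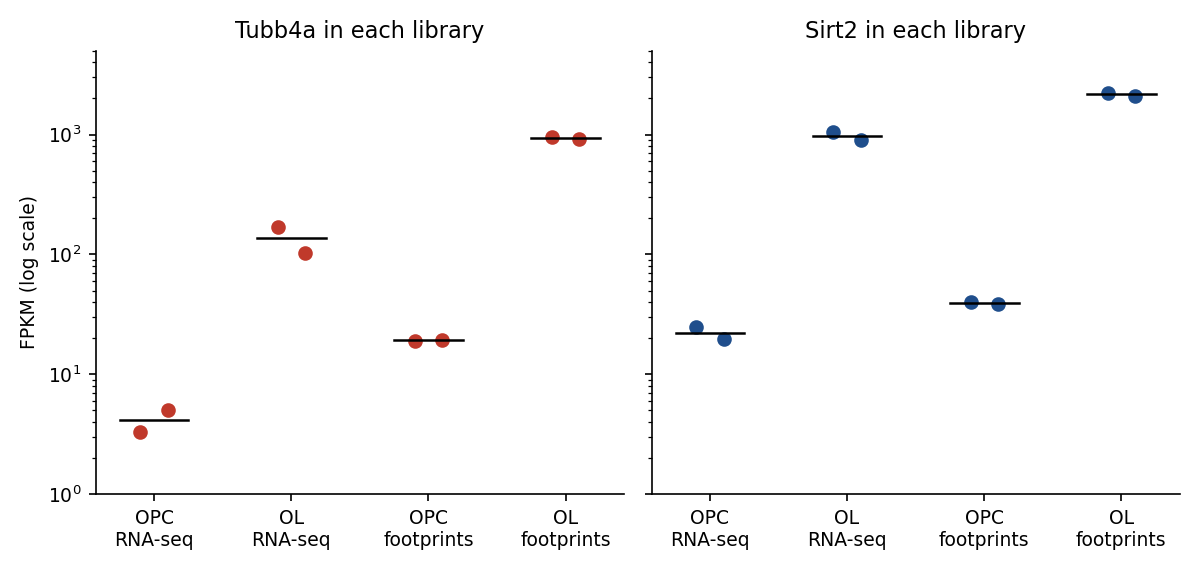
FPKM of Tubb4a (left) and Sirt2 (right) in each of the 8 libraries, on a log scale, with a point for each replicate and a line at the mean of the 2 replicates. In both genes and both kinds of library the OL points lie above the OPC points, and the widest gap between replicates is that of Tubb4a in OL RNA-seq, 170 against 103 FPKM.

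On the log2(FPKM + 0.1) scale the change of Tubb4a was 4.99 in RNA-seq and 5.59 in footprints, and that of Sirt2 was 5.46 and 5.79. Taken within same-numbered cultures, the RNA-seq change of Tubb4a was 5.66 and 4.32, and that of Sirt2 was 5.40 and 5.52. In footprints the pairs gave 5.64 and 5.55 for Tubb4a and 5.80 and 5.77 for Sirt2. The pairs thus lay close to each other except for Tubb4a in RNA-seq. The median change of all transcripts tested was -0.23 in RNA-seq and -0.16 in footprints. Scaling the libraries by their median ratio moved the RNA-seq median to -0.05 and left that of footprints at -0.14. Relative to the medians of the unscaled fits, Tubb4a was higher by 5.22 in RNA-seq and 5.75 in footprints, and Sirt2 by 5.69 and 5.95. Ranked by change, Sirt2 was 53 and Tubb4a 82 of 8346 transcripts in RNA-seq, and they were 104 and 117 of 8342 in footprints.

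Across the table, 1083 transcripts (13.0% of those tested) rose and 1689 (20.2%) fell in RNA-seq in OLs at an adjusted p under 0.05 (limma, Benjamini-Hochberg), and after median-ratio scaling 1344 rose and 1264 fell. In footprints 1065 (12.8% of those tested) rose and 904 (10.8%) fell. These shares are the background for the counts of related genes given below. Leaving out 1 OPC replicate leaves 1 OPC sample, which is then assumed to vary like the 2 OL samples. Such fits made 360 and 304 calls in RNA-seq without OPC replicate 1 or 2 and none in footprints (limma, 0 each, with 1961 and 1934 at an unadjusted p under 0.05 and a lowest adjusted p of 0.0864 and 0.0958). Since no transcript at all passed, these footprint fits say nothing of how stable a footprint call named below is. How far the log2 fold changes in footprints moved over all settings differed between genes. They stayed close for Atat1 (1.95 to 2.27) and Mapt (3.86 to 4.03). They moved more for Tuba4a (2.77 to 4.11) and Hdac11 (2.451 to 4.197). Without OL replicate 1 there were 2227 calls in RNA-seq and 3010 in footprints. Each called gene given with its statistics below kept its direction under each setting tried.

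Ribosome density (RD), the footprint FPKM divided by the RNA-seq FPKM of the same culture, differed more between the genes than between the cell types. FPKM is scaled within each library, so an RD can be read only against other RDs of that culture. Tubb4a had an RD of 5.81 and 3.85 in OPCs and 5.61 and 8.94 in OLs. The groups overlapped, and in all 4 cultures the RD was above that of 88.3% to 97.5% of the transcripts. Sirt2 had an RD of 1.60 and 1.97 in OPCs and 2.10 and 2.35 in OLs, close to the median of the transcripts, which was 1.72 and 1.77 in OPCs and 2.02 and 1.95 in OLs. Its groups did not overlap, but neither did those medians, and Sirt2 stood above 46.1% to 59.9% of the transcripts. So Tubb4a mRNA carried more footprints per unit of RNA than most, in OPCs and in OLs, and Sirt2 mRNA an ordinary number. The other β-tubulins tested were above the median in every culture as well, with an RD of 3.13 to 3.54 for Tubb5, 2.34 to 3.34 for Tubb3 and 1.97 to 2.73 for Tubb4b.

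The change of log2 RD from OPCs to OLs was 0.61 for Tubb4a and 0.33 for Sirt2, beside a median of 0.10 over 8056 transcripts. It was higher than in 83.7% of these for Tubb4a and than in 67.8% for Sirt2. For Tubb4a the pairs of cultures disagreed, with -0.02 in the first pair and 1.23 in the second, and for Sirt2 they gave 0.40 and 0.26. The change of Tubb4a was 0.27 without OL replicate 2 and 0.32 without OPC replicate 2, but 0.90 without OPC replicate 1 and 0.94 without OL replicate 1. That of Sirt2 was 0.18 without OPC replicate 1 and 0.17 after median-ratio scaling. Over all transcripts, 1 (0.0124% of those tested) passed the threshold for RD (limma, with 387 at an unadjusted p under 0.05), a transcript of Dpm1 that is named only because it was the single one. With the replicate block, and without OPC replicate 1 or 2, 0 passed (limma, 539, 257 and 225 at an unadjusted p under 0.05), and without OL replicate 1 863 did.

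**Figure D2:**
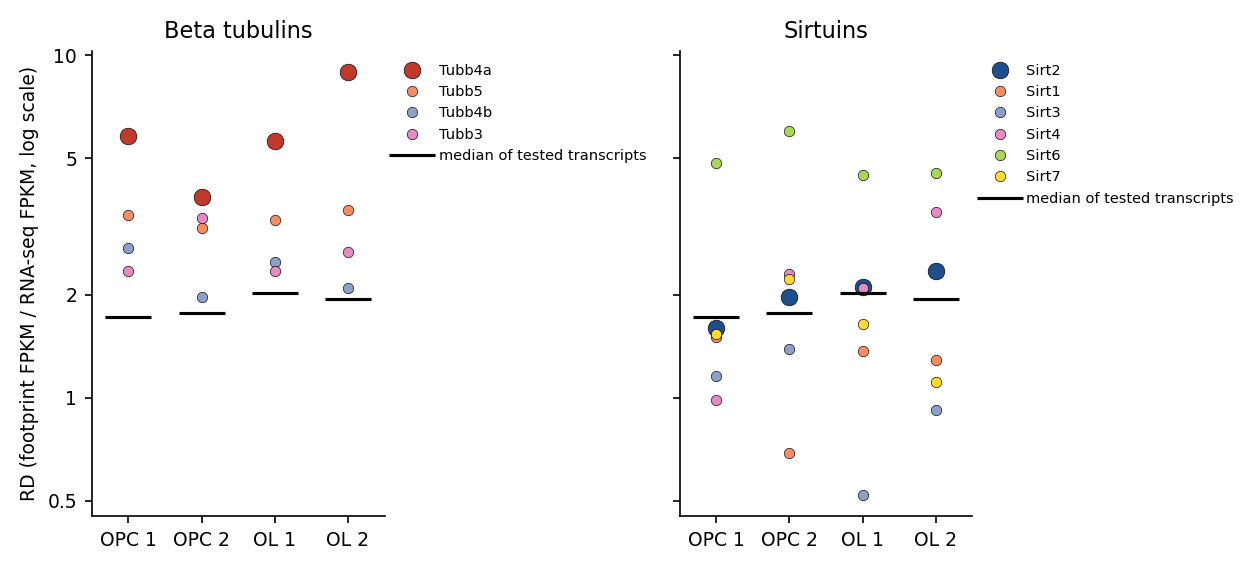
RD (footprint FPKM over RNA-seq FPKM, log scale) of β-tubulins (left) and sirtuins (right) in each culture, with bars at the median of the tested transcripts of that culture; Sirt5 and Tubb1, which fall under the minimum level, are not drawn. Tubb4a is the highest of the β-tubulins in every culture, from 3.85 to 8.94, and Sirt2 lies next to the median, from 1.60 to 2.35.

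The listed β-tubulins changed places between the cell types. Tubb5 was the highest of them in OPCs. It fell from 419 and 450 FPKM to 166 and 180 FPKM in RNA-seq, a log2 fold change of -1.33 ± 0.15 (SE, limma, adjusted p = 0.00271). Its footprints fell from 1428 and 1410 to 551 and 639 FPKM (-1.26 ± 0.13, limma, adjusted p = 0.00975). The groups did not overlap in either. The RNA-seq call was lost without OPC replicate 1 or 2 (limma, adjusted p = 0.0524 and 0.0585, range over all settings 0.000331 to 0.0585).

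Tubb3, the isotype best known from neurons, rose from a low level. It had 18.5 and 12.3 FPKM in OPCs, against 40.5 and 42.3 FPKM in OLs in RNA-seq (1.45 ± 0.24, limma, adjusted p = 0.00867), and 43.2 and 40.9 against 95.1 and 112 FPKM in footprints (1.30 ± 0.15, limma, adjusted p = 0.0119). The RNA-seq call was lost without OPC replicate 2, OL replicate 1 or OL replicate 2 (limma, adjusted p = 0.0711, 0.0502 and 0.0672) and with no minimum level (0.0539), in a range over all settings of 0.00243 to 0.0711. Of the 7 neuron markers, Gap43 fell in RNA-seq (past the threshold in 7 of 12 settings) and 6 did not pass the threshold, with log2 fold changes from -0.11 for Snap25 to 1.13 for Syt1 and 1.41 for Nefl, and their part in the value of Tubb3 was not tested.

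Tubb4b, a broadly expressed isotype, had 74.1 and 122 FPKM in OPCs, against 146 and 194 FPKM in OLs. This did not pass the threshold (0.82 ± 0.28, limma, adjusted p = 0.0709, but 0.00523 with the replicate block and 0.0452 with a minimum of 5 FPKM). Its footprints rose from 202 and 241 to 364 and 404 FPKM (0.79 ± 0.14, limma, adjusted p = 0.0278), a call lost after median-ratio scaling (limma, adjusted p = 0.0560), with no minimum level (0.0730), without the trend, without OL replicate 1 (0.0628) and without OL replicate 2 (0.108), in a range of 0.0151 to 0.163. Because most of its sequence is shared with pseudogenes, the value of Tubb4b is uncertain. Tubb1, the isotype of platelets, is at 0 in RNA-seq in all 4 libraries. Tubb2a, Tubb2b and Tubb6 were not analysed here, so the place and share of Tubb4a among all β-tubulins are not known from these values.

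Of the 3 other β-tubulins tested, 1 rose and 1 fell in RNA-seq, and 2 rose and 1 fell in footprints, with a median log2 fold change of 0.82 and 0.79. So few genes give no share to read against the background. The log2 fold changes of Tubb3 and Tubb4b lay between 0.79 and 1.45, against 4.99 and 5.59 for Tubb4a.

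Among the listed β-tubulins, Tubb4a moved from a minor share to a leading one. Its share of the summed FPKM of the 5 listed β-tubulins was 0.637% and 0.856% in OPC RNA-seq and 32.6% and 19.8% in OL RNA-seq. In footprints it was 1.13% and 1.14% in OPCs and 48.6% and 44.2% in OLs. The groups did not overlap, and in OL footprints Tubb4a held the largest share of these 5 in both replicates. In OL RNA-seq it was the largest in replicate 1 only, and in replicate 2 it came after Tubb4b (37.3%) and Tubb5 (34.8%). Tubb5 went from 78.8 ± 3.60% to 33.3 ± 2.10% in RNA-seq and from 83.4 ± 1.39% to 29.4 ± 1.98% in footprints (SD, n = 2 each). Meanwhile the summed FPKM differed less. It was 552 ± 52.8 FPKM in OPCs and 521 ± 3.16 FPKM in OLs in RNA-seq. In footprints it was 1702 ± 13.5 and 2019 ± 74.2 FPKM, and there the groups did not overlap. The shares therefore moved far more than the summed FPKM, as far as the listed genes show it. FPKM is scaled within each library, so these sums do not give the amount of tubulin RNA in a cell.

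**Figure D3:**
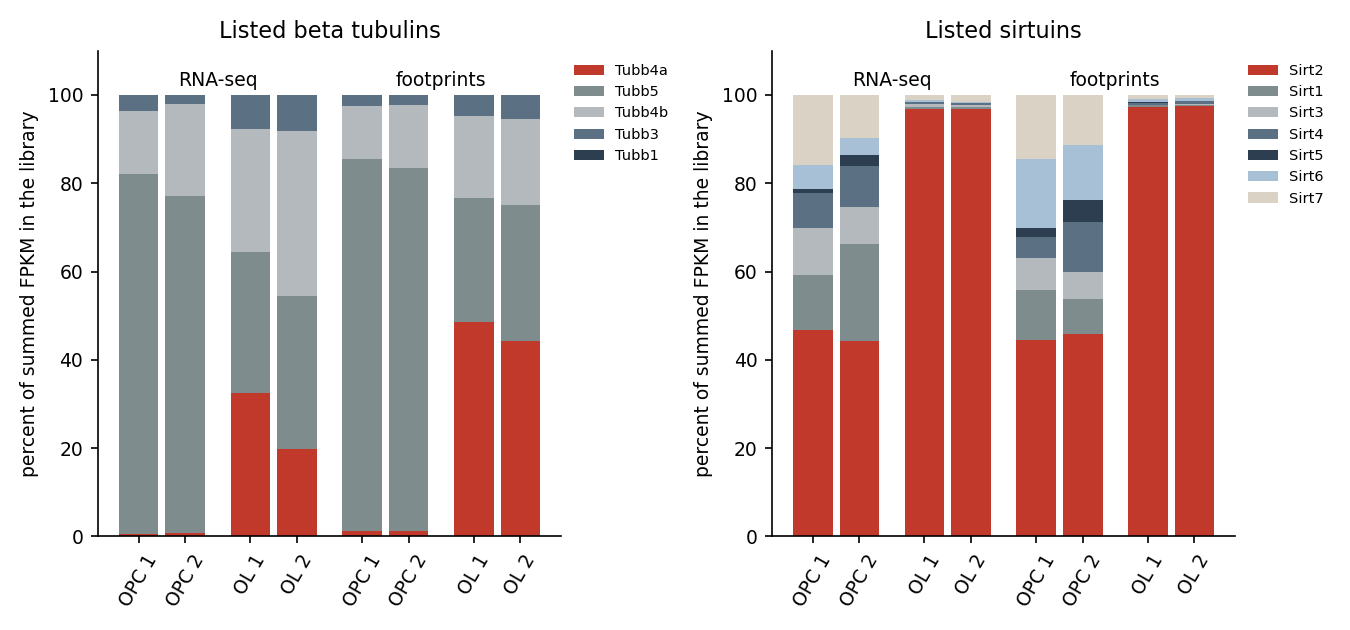
Share of each gene in the summed FPKM of the listed β-tubulins (left) and sirtuins (right), in percent, with a bar for each library. Tubb4a (red, left) goes from at most 1.14% in OPCs to between 19.8% and 48.6% in OLs, and Sirt2 (red, right) from 44.2% to 46.7% in OPCs to between 96.7% and 97.4% in OLs.

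Among the sirtuins, Sirt2 was already the highest in OPCs. It made up 46.7% and 44.2% of the summed sirtuin FPKM in OPC RNA-seq and 96.8% and 96.7% in OLs, and 44.5% and 45.7% against 97.3% and 97.4% in footprints. Here the summed FPKM was itself higher in OLs, also as a level relative to the library. It went from 48.7 ± 6.55 to 1010 ± 116 FPKM in RNA-seq and from 86.8 ± 3.83 to 2225 ± 84.1 FPKM in footprints (SD, n = 2 each). Sirt2 made up at least 96.7% of this sum in each OL library.

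The other 6 sirtuins did not pass the threshold in either kind of library, with 0 of 5 tested in RNA-seq and 0 of 6 in footprints (limma, with 1 and 0 at an unadjusted p under 0.05). Of all transcripts tested, 13.0% rose and 20.2% fell in RNA-seq, and 12.8% rose and 10.8% fell in footprints. So few sirtuins give no share to read beside these. The median of their log2 fold changes was 0.28 (RNA-seq) and -0.06 (footprints). The nuclear deacetylase Sirt1 had 6.70 and 9.65 FPKM in OPCs, against 5.13 and 4.35 FPKM in OLs in RNA-seq. Of the mitochondrial members, Sirt3 had 5.64 and 3.73 FPKM in OPCs, against 7.08 and 4.44 FPKM in OLs, and Sirt4 had 4.25 and 4.16 against 4.60 and 4.36 FPKM. Sirt5, also mitochondrial, had at most 1.26 FPKM in RNA-seq and was not tested there. The nuclear Sirt6 had 2.89 and 1.74 FPKM in OPCs, against 3.11 and 3.33 FPKM in OLs.

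Sirt7, the nucleolar member, came closest to a change. It had 8.44 and 4.30 FPKM in OPCs, against 13.8 and 14.0 FPKM in OLs (1.19 ± 0.36, limma, adjusted p = 0.0520), and the groups did not overlap. It passed with the replicate block (limma, adjusted p = 0.0235), after median-ratio scaling (0.0369), with a minimum of 5 FPKM (0.0369) and with a pseudocount of 1 (0.0409), in a range of 0.0235 to 0.211. Its footprints were 13.0 and 9.58 FPKM in OPCs, against 22.7 and 15.6 FPKM in OLs (limma, adjusted p = 0.199). Exons of Sirt3 overlap those of Psmd13 and Ric8a on the other strand, and the commands the study gives for mapping and tabulating set no strand option, so its level may hold reads of these genes.

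**Figure D4:**
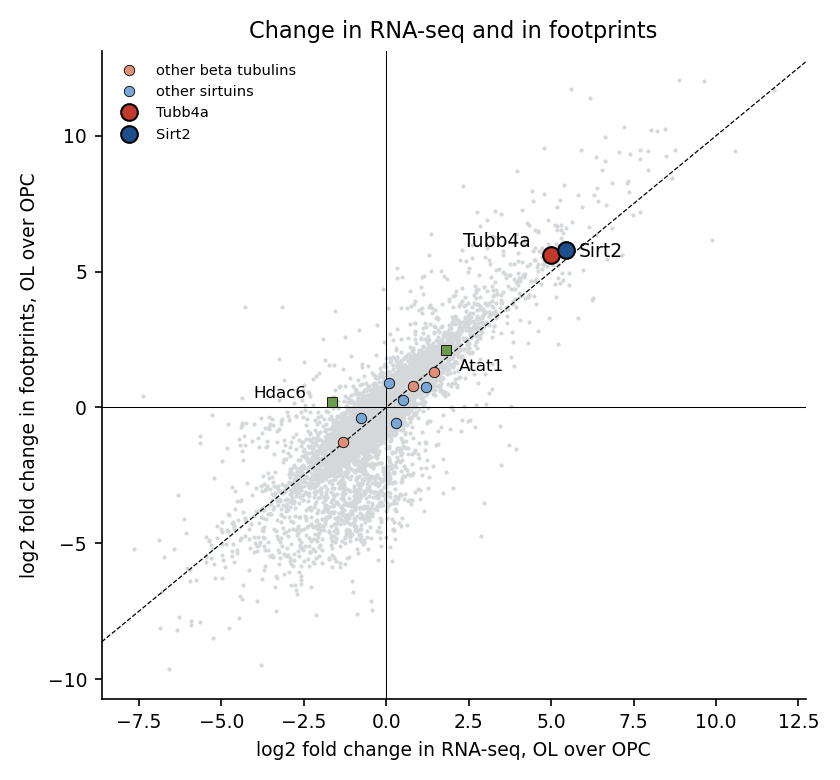
Log2 fold change of OLs over OPCs in RNA-seq (x axis) and in footprints (y axis) for each transcript tested in both (grey), with Tubb4a, Sirt2, the other β-tubulins and sirtuins, and Atat1 and Hdac6 marked; the dashed line is equality. Tubb4a (4.99, 5.59) and Sirt2 (5.46, 5.79) lie close together and apart from their relatives, which range from -1.33 to 1.45 in RNA-seq.

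Atat1 was measured in 1 list with the zinc-dependent deacetylases, of which Hdac6 acts on lysine 40 and most others are known for histones or other proteins. Of 10 tested, 2 rose and 3 fell in RNA-seq, with a median of -0.15 beside -0.23 for all transcripts, and 2 rose and 0 fell in footprints, with a median of 0.25 beside -0.16. Atat1, the acetyltransferase that opposes Sirt2, rose. It had 9.65 and 7.03 FPKM in OPCs, against 34.6 and 24.8 FPKM in OLs (1.82 ± 0.27, limma, adjusted p = 0.00640), and in footprints 41.4 and 33.1 against 163 and 157 FPKM (2.11 ± 0.16, limma, adjusted p = 0.00681). The groups did not overlap, and the RNA-seq call was lost without OPC replicate 1 or 2 (limma, adjusted p = 0.0698 and 0.0979, range over all settings 0.000881 to 0.0979). Atat1 shares 14.7% of its CDS words with the antisense gene Gm16279.

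Hdac6, the other deacetylase of lysine 40, was low and went the other way in RNA. It fell from 4.43 and 4.96 FPKM to 1.77 and 1.16 FPKM (-1.64 ± 0.43, limma, adjusted p = 0.0348), while its footprints were 4.29 and 2.73 FPKM in OPCs, against 5.30 and 2.99 FPKM in OLs (0.21 ± 0.63, limma, adjusted p = 0.822). The RNA-seq call was lost without OPC replicate 1 or 2 or OL replicate 2 (limma, adjusted p = 0.172, 0.214 and 0.0838) and with no minimum level (0.0773), in a range over all settings of 0.0252 to 0.214. In OLs the RNA-seq level of Sirt2 was therefore 977 FPKM beside 1.47 FPKM for Hdac6, as means per length, against 22.2 and 4.69 FPKM in OPCs. Hdac11, a deacetylase known from OLs, rose from 4.14 and 2.98 to 17.6 and 14.0 FPKM in RNA-seq (2.13 ± 0.30, limma, adjusted p = 0.00532, but 0.0675 and 0.0892 without OPC replicate 1 or 2). Its footprint call passed in 6 of 12 settings. Of its transcript words 24.2% are shared, and 690 exon bases overlap the antisense genes Gm14573 and Gm44002, so its level may hold their reads. Hdac7 fell from 6.19 and 8.48 to 0.949 and 2.10 FPKM (-2.27 ± 0.49, limma, adjusted p = 0.0195, but 0.138 and 0.199 without OPC replicate 1 or 2 and 0.0845 with no minimum level). Hdac2 was the other that fell, by 0.49 on the log2 scale (limma, adjusted p = 0.0436, lost after median-ratio scaling at 0.181, without the trend, and without any 1 of the 4 libraries at 0.112 to 0.153).

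The α- and other tubulins are the partners and relatives of Tubb4a. Of the 6 tested, 0 rose and 1 fell in RNA-seq, and 1 rose and 1 fell in footprints. The medians were -1.83 and -1.18, beside -0.23 and -0.16 for all transcripts. In RNA-seq the δ-, ε- and second γ-tubulin genes (Tubd1, Tube1 and Tubg2) are at 0 in OL replicate 2, and none of the 3 passed. The RNA-seq median rests on their log2 fold changes (-2.76, -3.30 and -3.40), which such a 0 makes uncertain. That of Tubd1 ran from -6.06 to 0.54 over all settings. The α-tubulins tested did not fall in RNA-seq, with 0.05 for Tuba1b and 1.90 for Tuba4a, and neither passed. Tuba1b, the α-tubulin with the highest level here, had 233 and 281 FPKM in OPCs, against 236 and 299 FPKM in OLs (0.05 ± 0.19, limma, adjusted p = 0.849), but 97.5% of its CDS words are shared with Tuba1c and other copies, so that its level is uncertain. Tubg1, the γ-tubulin that nucleates microtubules, fell from 36.4 and 32.9 to 19.9 and 17.1 FPKM (-0.90 ± 0.19, limma, adjusted p = 0.0167, lost without OPC replicate 1 or 2 or OL replicate 2 at 0.120, 0.111 and 0.0709). It fell in footprints too, from 67.7 and 69.4 to 42.2 and 45.2 FPKM (limma, adjusted p = 0.0385, but 0.0642 with the replicate block, 0.0807 after median-ratio scaling, 0.105 without the trend, and 0.0543 and 0.0684 without OL replicate 1 or 2). Tuba4a rose in footprints, from 0.610 and 0.483 to 8.82 and 10.3 FPKM (3.90 ± 0.64, limma, adjusted p = 0.0237, but 0.0627 with the replicate block, and past the threshold in 7 of 12 settings in a range of 0.0148 to 0.176). Exons of Stk16 overlap it on the other strand.

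Genes that fold tubulin were few, so their counts are given beside the shares of all transcripts. Over all transcripts tested, 13.0% rose and 20.2% fell in RNA-seq, and 12.8% rose and 10.8% fell in footprints. Among prefoldin, the chaperonin CCT and the tubulin cofactors, 1 of 14 tested rose, 4 fell and 9 did not pass in RNA-seq, with a median of -0.33. In footprints 1 rose, 3 fell and 10 did not pass, with a median of -0.54. Under the replicate block 9 of them passed in footprints. The subunits Tcp1 and Cct4 fell by 0.93 and 0.74 in RNA-seq and by 0.91 and 0.77 in footprints on the log2 scale, where each call passed in 5 of 12 settings. The footprint calls of Tcp1 and Cct4 were lost after median-ratio scaling (limma, adjusted p = 0.0572 and 0.0873), with no minimum level (0.0732 and 0.0969), without the trend (0.0879 and 0.115), without OL replicate 1 (0.0766 and 0.0932) and without OL replicate 2 (0.0789 and 0.0814). Tbce, a cofactor for α-tubulin, went from 9.79 and 10.0 FPKM to 1.66 and 0 FPKM in RNA-seq (limma, adjusted p = 0.0427). With a library at 0, its log2 fold change of -4.58 depends on the pseudocount, with -2.74 at 1 and -6.26 at 0.01, and it was -2.51 without OL replicate 2 and -6.65 without OL replicate 1. The call was lost with a pseudocount of 0.01 (0.0979), with no minimum level (0.181) and without the trend (0.0909). Tbcel, a relative of Tbce, rose from 5.48 and 4.05 to 22.9 and 15.3 FPKM (1.97 ± 0.31, limma, adjusted p = 0.00744). In RNA-seq the calls of Tbcel, Tcp1, Cct4 and Tbce were each lost without OPC replicate 1 or 2, and those of Tcp1 and Cct4 also without OL replicate 1 or 2, and that of Cct4 without the trend.

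The enzymes that modify the tubulin tails gave mixed values. Of 9 tested in RNA-seq 1 rose and 3 fell, with a median of 0.00, and of 7 in footprints 0 rose and 1 fell, with a median of -1.32. The carboxypeptidase Vash1, which removes the last tyrosine of α-tubulin, fell from 110 and 79.9 to 31.4 and 35.6 FPKM (-1.49 ± 0.21, limma, adjusted p = 0.00510, 0.0618 without OPC replicate 1). Ttl, which puts it back, fell from 9.44 and 9.07 to 5.19 and 3.61 FPKM (-1.08 ± 0.31, limma, adjusted p = 0.0436, but 0.246 and 0.248 without OPC replicate 1 or 2, 0.131 without OL replicate 2, 0.0574 after median-ratio scaling, 0.0905 with no minimum level and 0.0520 without the trend). The glutamylases Ttll4 and Ttll5, which act on the tails shown above or those of α-tubulin, went in opposite directions, with log2 fold changes of -1.17 and 1.84 (limma, adjusted p = 0.0225 and 0.0323). Both calls were lost without any 1 of the 4 libraries, at 0.0590 to 0.196 for Ttll4 and 0.0569 to 0.244 for Ttll5, which was also lost with no minimum level (0.127) and without the trend (0.0628).

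Microtubule-binding proteins known from oligodendrocytes and neurons formed a further list. Of 15 tested, 8 rose and 1 fell in RNA-seq, and 8 rose and 0 fell in footprints, with medians of 1.80 and 1.85. Since members were picked for these cell types, the counts are no independent sign of a rise in OLs and are not read against the background of all transcripts. Tppp, which promotes microtubule assembly in OLs, had the RNA-seq values nearest to those of Tubb4a. It had 3.65 and 2.60 FPKM in OPCs, against 122 and 106 FPKM in OLs (5.16 ± 0.24, limma, adjusted p = 0.000328). That RNA-seq call passed in each of the 8 settings that keep all replicates. Mapt, which encodes tau, went from 2.14 and 0 FPKM to 38.5 and 32.4 FPKM in RNA-seq (limma, adjusted p = 0.0196), and in footprints from 16.3 and 15.0 to 257 and 228 FPKM (3.94 ± 0.14, limma, adjusted p = 0.00279). With an OPC library at 0, the RNA-seq log2 fold change of Mapt ran from 3.99 to 8.47 over the settings, and its call was lost with a pseudocount of 0.01 (limma, adjusted p = 0.0586), with no minimum level (0.124), without the trend (0.0571) and without OL replicate 1 or 2 (0.112 and 0.119). Mapre2, a plus-end binding protein, rose from 17.3 and 12.2 to 88.6 and 63.7 FPKM (2.36 ± 0.26, limma, adjusted p = 0.00265, 0.0509 and 0.0643 without OPC replicate 1 or 2). Stmn4, of the stathmins that bind tubulin dimers, had 0.168 and 1.17 FPKM in OPCs, against 30.8 and 4.43 FPKM in OLs (4.34 ± 1.12, limma, adjusted p = 0.0323, but 0.240 and 0.138 without OPC replicate 1 or 2, 0.129 without OL replicate 1, 0.156 with no minimum level and 0.0749 without the trend). Map1a, Map6, Mapre3 and Dcx were the others that rose in both kinds of library, and Stmn1 fell in RNA-seq. All 5 RNA-seq calls were lost without OPC replicate 1 or 2. Without OL replicate 1 those of Map1a, Map6 and Mapre3 were lost (limma, adjusted p = 0.0501, 0.0760 and 0.117), without OL replicate 2 those of Mapre3 and Stmn1 (0.0700 and 0.141), and after median-ratio scaling that of Stmn1 (0.0612). In footprints the call of Dcx was lost without OL replicate 1 or 2, and those of Tppp, Stmn4, Map1a and Mapre3 without OL replicate 2. Over all settings, log2 fold changes in footprints ran from 1.14 to 1.61 (Dcx), 2.06 to 2.65 (Map1a) and 1.66 to 2.04 (Mapre3). For Tppp they ran from 5.26 to 6.76, and for Stmn4 from 3.58 to 4.69. The count in RNA-seq was 2 without OPC replicate 1, 2 without OPC replicate 2, 4 without OL replicate 1, 6 without OL replicate 2, 3 with no minimum level and 5 without the trend.

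Genes that make or use NAD, the cosubstrate of Sirt2, showed 1 rise among 4 tested in RNA-seq and among 5 in footprints, and 0 falls, with medians of 0.22 and -0.32. The gene was Nmnat2, an NAD-synthesizing enzyme known from axons, with 12.4 and 7.74 FPKM in OPCs, against 27.9 and 34.1 FPKM in OLs (1.65 ± 0.28, limma, adjusted p = 0.00945, but 0.0570 and 0.0895 without OPC replicate 1 or 2, 0.0776 without OL replicate 2 and 0.0603 with no minimum level). Nampt, the enzyme at the entry of the salvage pathway, was not analysed here.

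The transcripts whose pattern was most like that of each gene were ranked by the root mean square difference of log2(FPKM + 0.1) over the 8 libraries, after the OPC mean of the same kind of library was subtracted. For Sirt2 they were Cnp (0.148), Enpp2 (0.193), Ugt8a (0.236), Col9a1 (0.239) and Gpr17 (0.297). Cnp and Ugt8a are myelin genes of the oligodendrocyte markers, Enpp2 encodes autotaxin, and Gpr17 marks OPCs on their way to OLs. In RNA-seq Cnp had 27.1 and 28.0 FPKM in OPCs, against 1325 and 1118 FPKM in OLs, close to the values of Sirt2 itself. Its footprints were higher than those of Sirt2, with 93.3 and 73.1 FPKM in OPCs, against 5268 and 4921 FPKM in OLs. For Tubb4a they were Tmem108 (0.169), Lhfpl2 (0.234), Prickle1 (0.299), Gpr37l1 (0.308) and Man1c1 (0.327), at lower levels, such as 24.9 and 17.5 FPKM in OLs for Tmem108. Sirt2 ranked 9 from Tubb4a, and Tubb4a 9 from Sirt2, with a difference of 0.371, among 8056 transcripts. The order depends on the measure: with a pseudocount of 1, 1 of the 5 remained for Tubb4a and 2 for Sirt2, and with a Pearson correlation 1 remained for each. These are likenesses over 8 libraries that share 4 cultures.

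**Figure D5:**
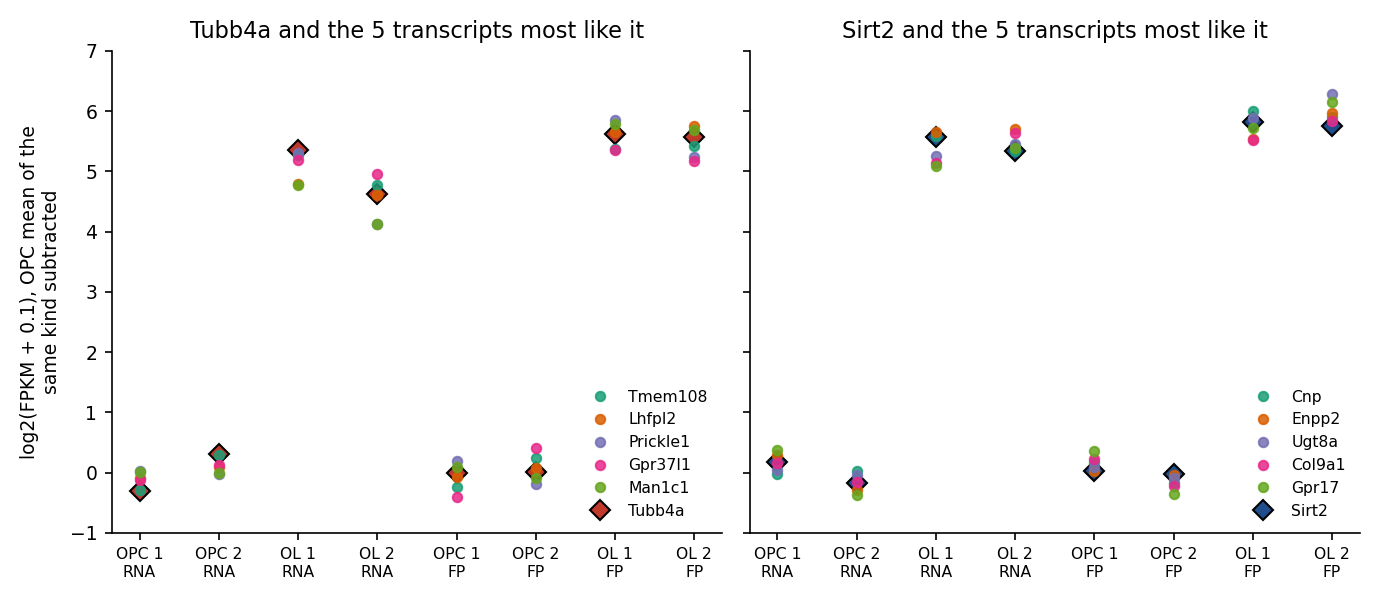
Log2(FPKM + 0.1) in each library less the OPC mean of the same kind of library (RNA, RNA-seq; FP, footprints), for Tubb4a (left) and Sirt2 (right, diamonds) and the 5 transcripts most like each (circles). The OPC points lie around 0 and the OL points of all genes lie well above them, with Tubb4a at a mean of 4.99 (RNA) and 5.59 (FP) and Sirt2 at 5.46 and 5.79.

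In codon use, which the choice of the genes did not draw on, both have few of the codons that the study followed. Tubb4a uses UUU for 6 of its phenylalanine codons and UUC for 18 (25.0% UUU), and AAA for 1 of its lysine codons and AAG for 13 (7.14% AAA). Sirt2 has 4 UUU and 15 UUC (21.1%), and 5 AAA and 21 AAG (19.2%). The medians over the listed transcripts were 42.9% UUU and 36.8% AAA. Of all transcripts, 15.5% had a lower UUU share than Tubb4a and 3.89% a lower AAA share, against 12.2% and 15.1% for Sirt2. Both genes thus lie in the lower part of both distributions, but some relatives do so too. Tubb5, which fell in OLs, has 17.4% UUU and 13.3% AAA, Tubb4b has 21.7% and 20.0%, and Sirt6 has 22.2% and 15.8%. Tubb3 has fewer UUU (13.6%) and more AAA (31.2%) than Tubb4a. The AAA share of Tubb4a was the lowest of the listed β-tubulins, next to 9.09% for Tubb1. The other sirtuins were at or above both medians, with UUU and AAA shares of 56.5% and 56.2% (Sirt1), 43.8% and 37.5% (Sirt3), and 42.9% and 38.5% (Sirt4). Sirt5 had 76.9% and 50.0%, and Sirt7 had 75.0% and 38.1%. The lower quartiles over the listed transcripts were 30.4% UUU and 25.0% AAA. Among the listed β-tubulins, Tubb4a, Tubb4b and Tubb5 lie below both. Tubb3 lies below that of UUU only, and Tubb1, with 36.4% UUU, below that of AAA only. Among the sirtuins, Sirt2 shares low use of both codons with Sirt6 only.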

How the data were processed

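Ribosome footprints and RNA-seq were measured in 2 OPC and 2 OL samples, 8 libraries in all, grouped by their labels. The authors deposited FPKM values: reads were trimmed with fastx_clipper, mapped to GRCm38 with HISAT2 2.1.0 and tabulated with StringTie 1.3.5 and ballgown, over canonical transcripts (RNA-seq) or their CDS (footprints) of Gencode vM9. FPKM were used as deposited. Because FPKM are not counts, limma 3.58.1 in R 4.3.3 was fitted to log2(FPKM + 0.1), its variances moderated with a trend, where a transcript averaged 1 FPKM or more. Fold changes are OL over OPC on that scale and understate the change of low genes. All tests are two-sided, with Benjamini-Hochberg adjustment over all transcripts tested and a threshold of 0.05. RD was tested as an interaction. With 2 against 2, an exact permutation test cannot go below 0.333, so none was run.

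Members and gene lists were chosen with earlier results of these data known. Genes were named by a rule: both genes, every listed β-tubulin and sirtuin, from each list up to 4 with the largest RNA-seq change among those that passed, Atat1, Hdac6, the markers and the 5 transcripts most like each gene. Other genes were named after their values were seen, to account for small counts or for the target of Sirt2 (Tuba1b, Tuba4a). Same-numbered cultures were taken as pairs, since the study made OLs from the OPC replicates; deviations of same-numbered samples from their group means correlated at 0.108 (RNA-seq) and 0.0860 (footprints). Depth was estimated as the total at which FPKM times length came closest to whole numbers over the 1500 lowest values of a library, and it carries a possible factor of 2. Coordinates, sequences and shared 30-base words come from Gencode vM21, in which all 10987 identifiers were found, with Biopython and pandas, and encoded proteins were compared by global alignment. The fits were also tested on simulated data, the outcome of which is not given here. Alternatives were other pseudocounts (1, 0.01), minimum levels (none, 5 FPKM), median-ratio scaling, no trend, a replicate block and each sample left out.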

Additional observations from a re-analysis of the deposited data

How the results depend on the processing

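Over the counts of calls and the values of Tubb4a and Sirt2, 207 alternatives stayed within 1.5 times the main count or 1 SD of the value, 71 gave fewer calls, 18 gave more and 1 moved the value, and none turned a direction. With no minimum level, 1715 transcripts passed in RNA-seq (main 2772) and 1163 in footprints (main 1969), and without the trend 1036 in footprints. In RD, against 1, the count was 3 with a pseudocount of 0.01, 3 after median-ratio scaling and 14 without the trend. Leaving out 1 sample at a time gave 304 to 2227 in RNA-seq, 0 to 3010 in footprints and 0 to 863 in RD. The highest RD count came without OL replicate 1, and leaving out either OPC replicate gave the 0 in footprints, in fits with 1 OPC sample.

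With the replicate block, which pairs same-numbered cultures, 3323 transcripts passed in RNA-seq, 1735 in footprints and 0 in RD (limma, 539 at an unadjusted p under 0.05). Among genes named by the rule, the block gained Tubb4b, Sirt7 and the OPC marker Cacng4 in RNA-seq and Cacng4 in footprints, and lost Tubg1 in footprints. It also gave 1 sirtuin and 3 α- and other tubulins in RNA-seq, and 1 α- or other tubulin and 9 folding genes in footprints.

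For the families, no minimum level left 1 other β-tubulin in RNA-seq (main 2), and 1 sirtuin passed in RNA-seq with a pseudocount of 1, a minimum of 5 FPKM or median-ratio scaling (main 0). Left-out samples gave 0 to 1 β-tubulins in RNA-seq, 0 to 2 in footprints (main 3) and 0 to 1 sirtuins in footprints. The footprint change of Tubb4a was 5.53 with a pseudocount of 1 (main 5.59).

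The lists were put under these settings after the data were seen. In RNA-seq, α- and other tubulins counted 3 with a pseudocount of 1 (main 1), Atat1 and deacetylase genes 3 with no minimum and 3 with a minimum of 5 FPKM (main 5), folding genes 3 with no minimum and 2 without the trend (main 5), tail enzymes 2 in both of these (main 4), and binding proteins 3 and 5 (main 9). In footprints, α- and other tubulins counted 1 with a minimum of 5 FPKM and after scaling (main 2), Atat1 and deacetylase genes 1 with no minimum and without the trend (main 2), folding genes 1 in these and after scaling (main 4), and tail enzymes 0 in both (main 1; limma, 2 at an unadjusted p under 0.05). Left-out samples gave, in RNA-seq and footprints, 0 to 4 and 0 to 4 α- and other tubulins, 0 to 4 and 0 to 2 Atat1 and deacetylase genes, 0 to 2 and 0 to 3 folding genes, 0 to 3 and 0 to 3 tail enzymes, 2 to 6 and 0 to 9 binding proteins, and 0 to 2 and 0 to 1 NAD genes. The cause of these differences was not tested. Few reads stand behind Tubb4a in OPC RNA-seq, which limits the precision of its fold change, and the depth estimate itself is uncertain.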
